A study of Saccharomyces cerevisiae with 6 samples.

Results

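The genes described here are 37 genes of Saccharomyces cerevisiae for oxidant defence and thiol redox balance, from superoxide dismutases to the regulators Yap1 and Skn7. Each was read through the brightest probe set that the platform's gene table pairs with that gene alone. All 37 had such a probe set, out of 5656 genes in the series that had one. GPX2 was among the dimmest 25% of genes and was not tested, so 36 members were among the 4242 genes tested.

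The study compared 3 arrays of biofilm cells (labelled floaters) with 3 arrays of bottom layer cells (labelled sinkers). Both groups were strain 3238-32, labelled as MATa with the alleles leu2∆1, lys2-801 and ura3-52, which forms a film at the air surface once glucose has gone. A 24 h preculture in YEPD at 30°C was washed and brought 10-fold down in Flor medium (YNB with 4% ethanol, leucine, histidine and uracil), of which each 250 ml beaker held 100 ml. After 48 h without shaking at 27°C the film was aspirated, followed by the settled cells. Both populations were clumped under the microscope. Which beaker an array came from is not given, and p-values therefore measure only the spread between these samples, which may be technical.

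Yeast removes superoxide with dismutases and passes the resulting hydrogen peroxide to catalases, haem peroxidases, thioredoxin-dependent peroxiredoxins and glutathione peroxidases. Thioredoxin and glutathione are kept reduced by reductases that draw on NADPH, and glutaredoxins use glutathione to repair protein thiols or to handle iron-sulfur clusters. Respiration on ethanol makes oxidants in mitochondria, which hold their own dismutase, thioredoxin and peroxiredoxin, and the transcription factor Yap1, with Skn7 as its partner, is known to turn on many of these genes under peroxide.

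Some facts of the whole series bear on the values. Deposited signals are linear intensities that had been scaled to a trimmed mean of about 500 on every array, and the number of arrays limits the precision, with a median standard error of 0.17 for the members' log2 fold changes. Bottom layer replicate 3 stood apart: its ACT1 3' to 5' signal ratio, a measure of RNA integrity, was 3.84, against 2.36 and 1.80 on the other bottom layer arrays, while biofilm arrays had 1.54, 2.04 and 1.56. It held the highest or lowest bottom layer signal for 31 of the 37 members (83.8%), and for 78.1% of all genes tested. With 3 like arrays, any of them would hold an extreme for most genes. All 5 markers of alpha mating type lay above the unspiked controls on all 6 arrays, with summed signals of 9747 to 10960 in biofilm cells and 9964 to 10430 in bottom layer cells. The 6 a-specific genes summed to 84.1 to 119 in biofilm cells and 210 to 278 in bottom layer cells, none lay above the controls on every array, and the alpha factor receptor gene STE2 lay below them on all 6. An a-factor gene, MFA1, differed between the groups, at 13.9, 18.2 and 6.87 in biofilm cells against 116, 123 and 108 in bottom layer cells, where the highest controls were 17.3, 16.3 and 44.8. The alpha-specific genes also differed in both directions, with MF(ALPHA)1 2.21-fold and STE3 1.68-fold higher in the biofilm and SAG1 4.36-fold and MF(ALPHA)2 1.64-fold lower. The bright alpha-specific genes go against the labelled mating type, MATa, on all 6 arrays. Of the labelled markers, URA3 was dim (26.3 to 32.5 in the biofilm, 15.1 to 16.9 in the bottom layer), while LEU2 was bright (4962 to 5712 in the biofilm, 7039 to 11805 in the bottom layer) and LYS2 lay at 818 to 1391 and 324 to 637 in those groups. Probe positions were not used here, so a bright LEU2 probe set does not check the label. The LYS2 signal does not check its label either. Of 6 sporulation genes 2 lay above the controls on every array, and the list summed to 143 to 328 in biofilm cells and 419.5 to 458 in bottom layer cells. The 6 stationary phase genes summed to 14660 to 14800 in biofilm cells and 48420 to 80500 in bottom layer cells; 5 of them were lower in the biofilm, and SNZ1 was higher (1.34-fold, adjusted p = 0.0281). The part of these marker genes in the results was not tested.

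The members did not move as a block. In the limma fit over all genes (Benjamini-Hochberg adjusted p below 0.05), 10 members were higher in the biofilm, 12 were lower and 14 did not pass, so that 22 of 36 (61.1%) were called, beside 62.5% of all genes tested. Higher members made up 27.8%, beside 38.0% of all genes, and lower members 33.3%, beside 24.4%. The median log2 fold change was -0.02 for the members and 0.17 for all genes tested. Called changes of at least 2-fold numbered 10 (27.8%, beside 32.4% of all genes), of which 5 were higher (19.4% of all genes) and 5 lower (13.0% of all genes). The 3 biofilm arrays lay wholly above or below the 3 bottom layer arrays for 24 members (66.7%), beside 68.0% of all genes. The count of called members was therefore near the background, and the description turns on which genes went which way. Of the 22 calls, 19 were kept without bottom layer replicate 3 and 17 with the ACT1 ratio as a covariate. In bulk RNA, fewer cells of a kind and less RNA per cell cannot be told apart.

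**Figure D1:**
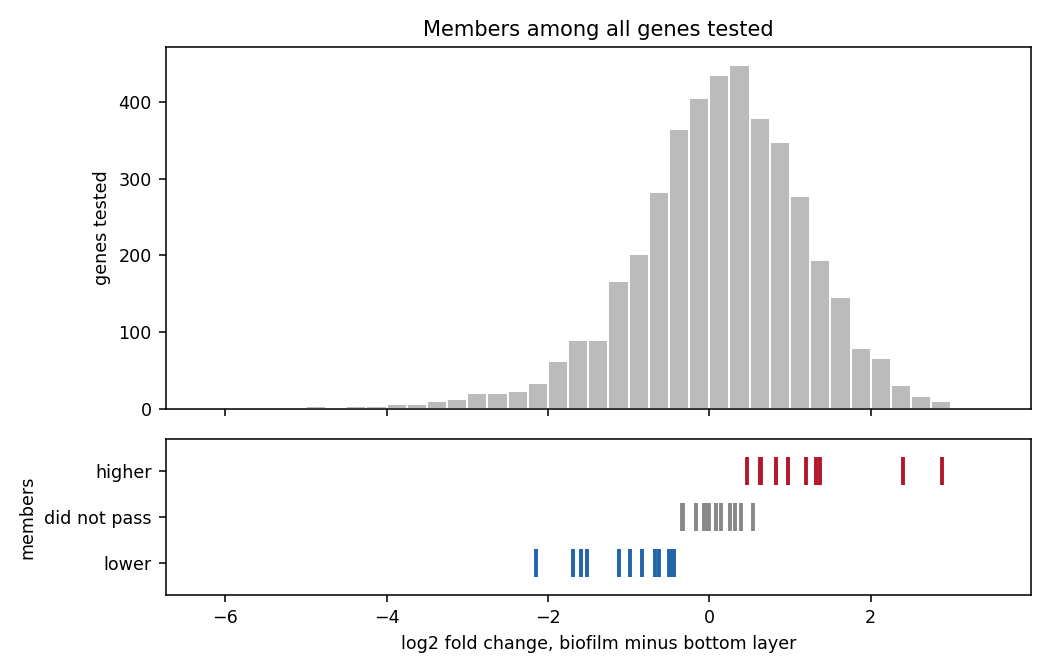
Log2 fold changes (biofilm minus bottom layer) of all 4242 genes tested as a histogram (upper panel, number of genes on the vertical axis) and of the 36 members tested as ticks, split by call (lower panel). The 10 higher members reach 2.89 and the 12 lower members reach -2.15, on both sides of the all-gene median of 0.17.

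**Figure D2:**
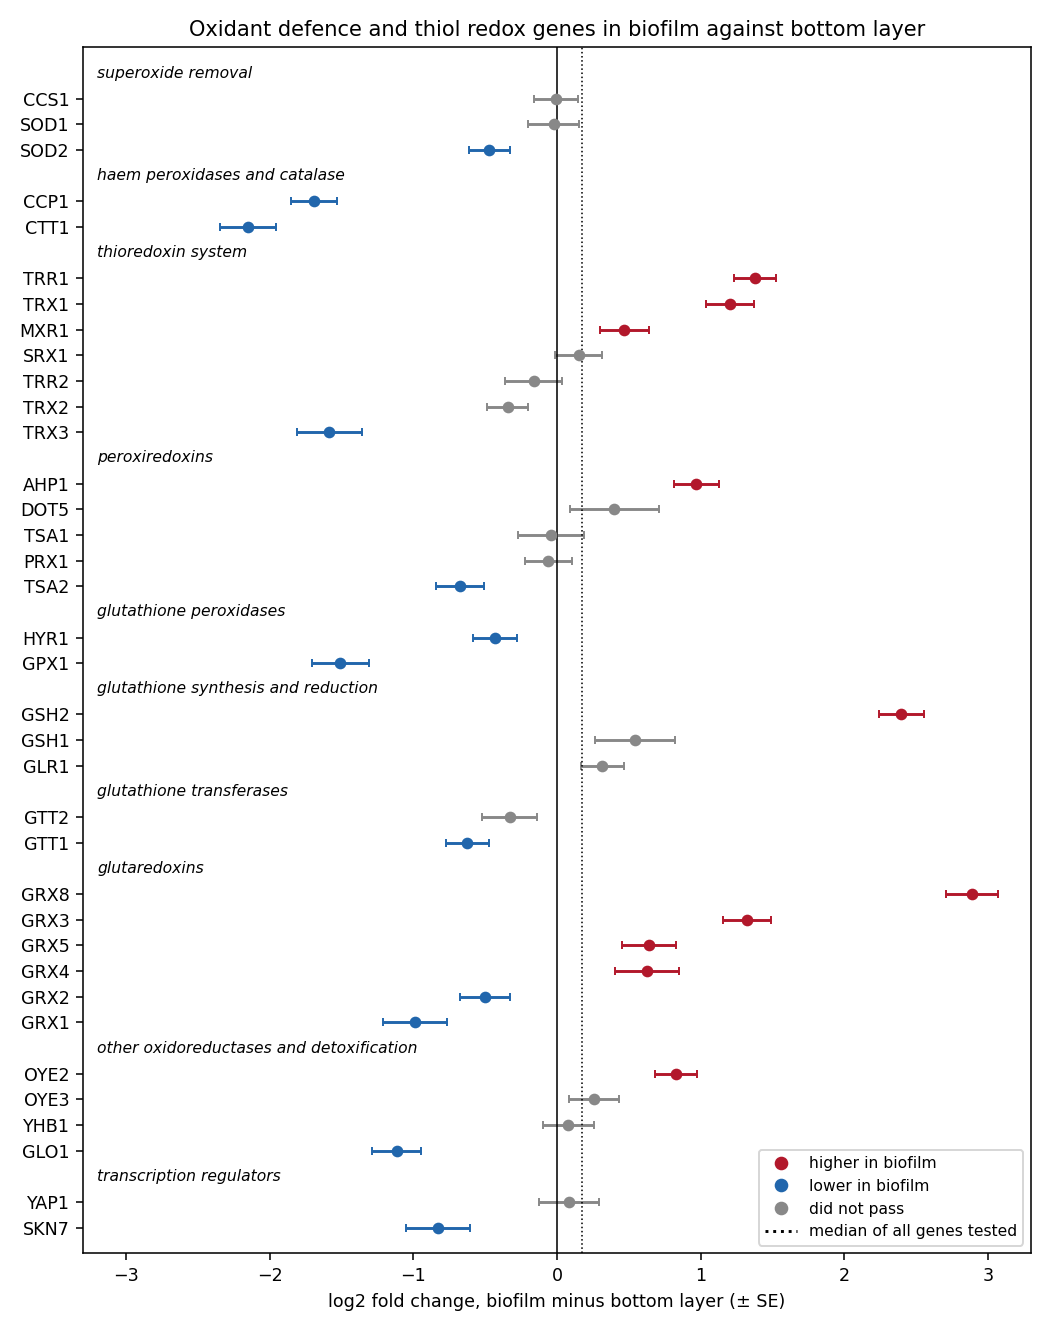
Log2 fold change of each of the 36 members tested (horizontal axis; points are estimates, bars are ± 1 standard error), grouped by role and coloured by call. Every role with more than 3 members tested holds both higher and lower genes, and the glutaredoxins run from -0.99 for GRX1 to 2.89 for GRX8.

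Of the 3 genes for superoxide removal, the mitochondrial one fell and the other two did not pass. SOD1, the copper and zinc superoxide dismutase of the cytosol, had signals of 4816, 5585 and 5038 in biofilm cells and 4812, 4694 and 6308 in bottom layer cells. These overlap, and the log2 fold change was -0.02 (SE 0.18, adjusted p = 0.916). Its copper chaperone gene CCS1 did not pass either (adjusted p = 0.976), at 469 ± 13.8 in biofilm cells and 472 ± 49.1 in bottom layer cells (mean ± SD, n = 3 each). SOD2, the manganese enzyme of the mitochondrial matrix, had 2525, 2254 and 2235 in the biofilm against 3103, 3108 and 3529 in the bottom layer. All biofilm arrays were below all bottom layer arrays, a 1.39-fold fall (adjusted p = 0.0155). That call was lost without biofilm replicate 2 (adjusted p = 0.0577), without biofilm replicate 3 (adjusted p = 0.0529) and with the ACT1 ratio as a covariate (adjusted p = 0.0597). MTM1, whose product is needed to load manganese into Sod2, moved the other way, at 1757 ± 292 in biofilm cells and 728 ± 157 in bottom layer cells.

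Both haem enzymes that destroy hydrogen peroxide fell in the biofilm. CTT1, the cytosolic catalase T and a classic general stress gene, had 584, 488 and 383 in the biofilm against 2456, 2440.3 and 1726 in the bottom layer. It was 4.44-fold lower, the largest fall among the members (log2 fold change -2.15, SE 0.20, adjusted p = 8.17e-06). CCP1, the cytochrome c peroxidase of the mitochondrial intermembrane space, had 1035, 795 and 776 in the biofilm against 2583, 3016 and 2872 in the bottom layer, 3.23-fold lower (adjusted p = 9.49e-06). For both genes the groups were far apart compared with their spread. The peroxisomal catalase gene CTA1, which is not a member, lay at 1668 ± 185 in biofilm cells and 5102 ± 492 in bottom layer cells (3.04-fold lower, adjusted p = 1.18e-05).

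**Figure D3:**
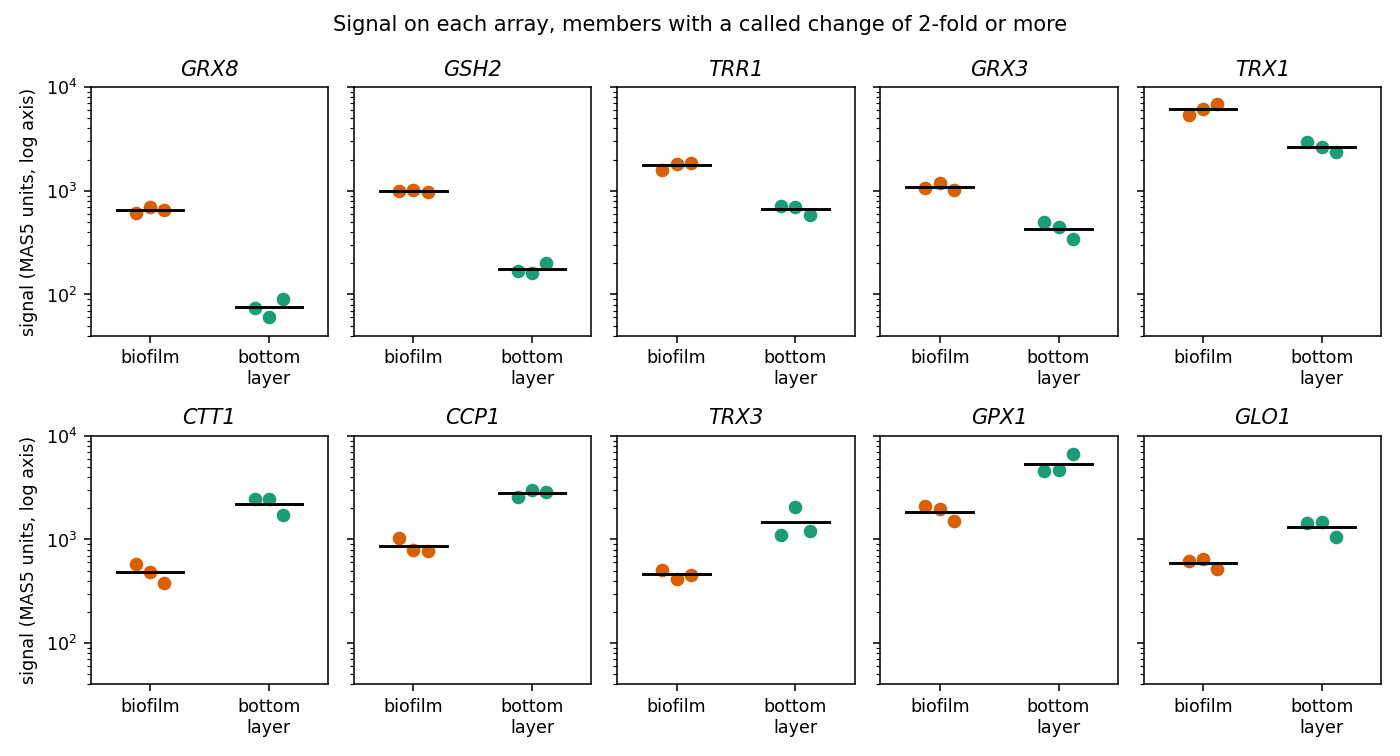
Signal on each array (vertical log axis, MAS5 units) for the 10 members with a called change of at least 2-fold; points are arrays, 3 in each group, and bars are group means. In each panel the biofilm and bottom layer arrays do not overlap, with the 5 higher members in the upper row and the 5 lower members in the lower row.

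The 5 peroxiredoxin genes divided. AHP1, a cytosolic peroxiredoxin with a preference for alkyl hydroperoxides, rose 1.96-fold, to 5106 ± 349 in the biofilm against 2609 ± 326 in the bottom layer (adjusted p = 0.000367). TSA1, the major cytosolic peroxiredoxin, had 8329, 10901 and 9386 in biofilm cells and 9652, 7461 and 12911 in bottom layer cells. Its groups overlap and it did not pass (log2 fold change -0.04, SE 0.23, adjusted p = 0.887), although it was higher under quantile normalization (log2 fold change 0.34, adjusted p = 0.00938) and with the ACT1 covariate (0.37, adjusted p = 0.0369). TSA2, its paralog, was lower on every biofilm array, with 355, 387 and 332 against 605, 656 and 493 in the bottom layer. Its fall was 1.60-fold (adjusted p = 0.00452). PRX1, the mitochondrial peroxiredoxin, had 1796, 1780.2 and 1537 in biofilm cells and 1919.8, 2002 and 1458 in bottom layer cells, an overlap (adjusted p = 0.759). DOT5, which encodes a nuclear thiol peroxidase, was at 481 ± 111 in biofilm cells and 382 ± 171 in bottom layer cells and did not pass (adjusted p = 0.285), and its fold was not settled. Its log2 fold change of 0.40 became 0.69 without bottom layer replicate 2 (adjusted p = 0.0471), 0.0133 without bottom layer replicate 3 (0.961) and -0.23 with the ACT1 covariate (0.493).

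Both glutathione peroxidase genes that were tested fell. GPX1 had 2088, 1962 and 1501 in the biofilm against 4571, 4701 and 6737 in the bottom layer, 2.85-fold lower (adjusted p = 8.18e-05). HYR1, also known as GPX3, encodes the peroxide sensor that passes oxidation on to Yap1. Its signals were 1556, 1308 and 1719 in the biofilm against 2104, 2204 and 1877 in the bottom layer, a smaller fall of 1.35-fold (adjusted p = 0.0303). The call of HYR1 was lost when either biofilm replicate 1 (adjusted p = 0.0617), biofilm replicate 2 (0.131), bottom layer replicate 1 (0.0817) or bottom layer replicate 2 (0.0767) was left out. GPX2, the remaining paralog, was dim on every array, at 48.5 ± 3.38 in biofilm cells and 35.2 ± 8.19 in bottom layer cells, and was not tested.

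Of the 7 genes of the thioredoxin system, 3 rose, 1 fell and 3 did not pass. Over all genes tested, 38.0% were higher and 24.4% lower. TRX1, a cytosolic thioredoxin, rose to 5372, 6161 and 6898 in the biofilm, against 2992, 2622 and 2364 in the bottom layer. The rise was 2.30-fold (log2 fold change 1.20, SE 0.17, adjusted p = 0.000126). TRR1, the cytosolic thioredoxin reductase that recharges it with NADPH, rose alongside, with 1594, 1826 and 1863 in the biofilm against 716, 703 and 589 in the bottom layer, or 2.60-fold (adjusted p = 2.13e-05). TRX2, the other cytosolic thioredoxin and a standard Yap1 target, did not follow them. It had 2838, 2714 and 2923 in biofilm cells and 3705, 3497 and 3571 in bottom layer cells. These groups do not overlap, yet the log2 fold change of -0.34 missed the threshold (SE 0.14, adjusted p = 0.0523). It passed as lower under quantile normalization (adjusted p = 0.0298), median centring (0.0176), array weights (0.00896) and without the dimmest 50% of genes (0.0456).

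TRX3, the mitochondrial thioredoxin, had 509, 416 and 452 in the biofilm against 1110.2, 2070.3 and 1205 in the bottom layer. It fell 3.00-fold (log2 fold change -1.59, SE 0.22, adjusted p = 0.000135), with bottom layer replicate 2 well above the other bottom layer arrays. TRR2, the reductase of mitochondria, had 1019, 1181 and 1237 in biofilm cells and 1348, 1631 and 956 in bottom layer cells. Its groups overlap, and it did not pass (adjusted p = 0.485). Of the genes that draw on thioredoxin for repair, MXR1, a methionine sulfoxide reductase, rose 1.38-fold, to 664 ± 95.4 in the biofilm against 475 ± 58.6 in the bottom layer (adjusted p = 0.0316). SRX1, the sulfiredoxin that restores overoxidised peroxiredoxins, was at 617 ± 73.9 and 554 ± 62.6 in those groups and did not pass (adjusted p = 0.440). The MXR1 call was lost without biofilm replicate 1 (adjusted p = 0.0561), biofilm replicate 2 (0.135) or bottom layer replicate 3 (0.0826), and under quantile normalization (0.113), median centring (0.167) and the ACT1 covariate (0.144).

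The last step of glutathione synthesis showed the second largest rise among the members. GSH2, glutathione synthetase, had 994, 1023 and 976 in the biofilm against 168, 162 and 203 in the bottom layer, 5.26-fold higher (log2 fold change 2.40, SE 0.16, adjusted p = 1.23e-06). GSH1, which carries out the step before it and is known to limit the pathway's rate, had 254, 112 and 136 in biofilm cells and 78.0, 130.0 and 108 in bottom layer cells. Biofilm replicate 1 stood above the other biofilm arrays, the groups overlap, and the gene did not pass (log2 fold change 0.54, SE 0.28, adjusted p = 0.112), although it was higher without biofilm replicate 2 (0.76, adjusted p = 0.0445) and with array weights (0.79, adjusted p = 0.0120). GLR1, glutathione reductase, was at 2951 ± 347 in biofilm cells and 2361 ± 151 in bottom layer cells. Its arrays do not overlap, but it did not pass (adjusted p = 0.0935), except under quantile normalization (adjusted p = 0.0467).

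Of the glutathione transferases, which attach glutathione to electrophiles, GTT1 fell and GTT2 did not pass. GTT1 had 1332, 1052 and 1391 in the biofilm against 1977, 1991 and 1838 in the bottom layer, 1.54-fold lower (adjusted p = 0.00450). For GTT2 the signals were 457, 299 and 411 in biofilm cells and 438, 478 and 547 in bottom layer cells, an overlap (adjusted p = 0.150). It passed as lower under quantile normalization (log2 fold change -0.51, adjusted p = 0.0399) and median centring (-0.53, adjusted p = 0.0338).

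All 6 glutaredoxin genes among the members were called, 4 higher and 2 lower, beside 62.5% called, 38.0% higher and 24.4% lower over all genes tested. GRX8, a dithiol glutaredoxin of the cytosol, had the largest rise of any member, with 605, 702 and 659.5 in the biofilm against 74.3, 60.6 and 91.0 in the bottom layer. It was 7.41-fold higher (log2 fold change 2.89, SE 0.18, adjusted p = 9.78e-07), and only 2 of the 4242 genes tested had a larger positive change. The classical dithiol glutaredoxins GRX1 and GRX2 moved the opposite way. GRX1 had 4357, 5017 and 3954 in the biofilm against 7919, 7015 and 12222 in the bottom layer (1.98-fold lower, adjusted p = 0.00293). GRX2 had 3393, 2946 and 3032 in the biofilm against 4481, 3662 and 5264 in the bottom layer (1.42-fold lower, adjusted p = 0.0268). Bottom layer replicate 3 was the brightest array for both.

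The 3 monothiol glutaredoxins among the members all rose, but GRX6, a monothiol glutaredoxin outside the members, fell 2.48-fold. GRX3 and GRX4 encode proteins of the nucleus and cytosol that bind iron-sulfur clusters and restrain the iron regulator Aft1. GRX3 had 1065, 1193 and 1022 in the biofilm against 499, 449 and 346 in the bottom layer, 2.50-fold higher (adjusted p = 6.94e-05). GRX4 had 452, 332 and 279.7 in the biofilm against 246, 253 and 169.6 in the bottom layer, 1.54-fold higher (adjusted p = 0.0295). The groups were apart for both, though narrowly for GRX4. GRX5, which serves iron-sulfur cluster assembly in mitochondria, was at 866 ± 95.7 in biofilm cells and 559 ± 137 in bottom layer cells (1.56-fold higher, adjusted p = 0.0126). A dimmer probe set of GRX5 went the other way and did not pass, at 57.8 to 64.9 in biofilm cells and 66.7 to 104 in bottom layer cells (log2 fold change -0.33, adjusted p = 0.194).

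The calls of GRX2, GRX4 and GRX5 depended on which arrays were kept, while their directions did not. With 1 array left out the log2 fold change ran from -0.64 to -0.38 for GRX2, 0.45 to 0.78 for GRX4 and 0.50 to 0.82 for GRX5. The GRX2 call was lost without biofilm replicate 2 (adjusted p = 0.0892), biofilm replicate 3 (0.0753), bottom layer replicate 1 (0.0763) or bottom layer replicate 3 (0.0628). For GRX4 it was lost without biofilm replicate 1 (adjusted p = 0.130), biofilm replicate 2 (0.0580) or bottom layer replicate 3 (0.0836), and for GRX5 without biofilm replicate 3 (adjusted p = 0.0502). With the ACT1 covariate GRX2, GRX4 and GRX5 had adjusted p = 0.161, 0.249 and 0.186. Quantile normalization and median centring each ended the GRX4 call (adjusted p = 0.0713 and 0.0791), while the calls of GRX1, GRX3 and GRX8 held in all alternatives tried.

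Among the remaining enzymes OYE2 rose and GLO1 fell. OYE2, an NADPH oxidoreductase of the old yellow enzyme type, had 1992, 1662 and 1744 in the biofilm against 1110.0, 954 and 953 in the bottom layer, 1.78-fold higher (adjusted p = 0.000574). Its paralog OYE3 had 1157, 1002 and 876 in biofilm cells and 828, 711 and 1001 in bottom layer cells. These overlap and it did not pass (adjusted p = 0.213). GLO1, glyoxalase I, uses glutathione to remove methylglyoxal. It had 624, 641 and 517 in the biofilm against 1433, 1471 and 1048 in the bottom layer, 2.17-fold lower (adjusted p = 0.000251). YHB1, the flavohaemoglobin that disposes of nitric oxide, was at 4296 ± 568 in biofilm cells and 4074 ± 622 in bottom layer cells and did not pass (adjusted p = 0.721). Of its 3 dimmer probe sets, 2 did not pass either (log2 fold changes 0.49 and 0.55), and the third passed as lower but lay below the unspiked controls on 5 of 6 arrays.

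Of the regulators, YAP1 itself did not pass, at 132 ± 18.8 in biofilm cells and 126 ± 33.0 in bottom layer cells (log2 fold change 0.08, SE 0.21, adjusted p = 0.748). Yap1 is controlled mainly through its location in the cell, which RNA levels do not show. SKN7 fell 1.78-fold, to 79.6 ± 5.02 in the biofilm against 159.7 ± 57.8 in the bottom layer (adjusted p = 0.00740), and its bottom layer arrays ran from 126 to 226. A grouping of 9 members known as Yap1 targets (TRX2, TRR1, GSH1, GLR1, AHP1, TSA1, SRX1, GPX2 and OYE3) may leave out other targets among the members. Over all genes tested, 38.0% were higher and 24.4% lower. Of the 8 tested in this grouping, 2 were higher, TRR1 and AHP1, none was lower by limma and 6 did not pass. At an unadjusted p under 0.05, 1 of them was lower (TRX2). That grouping was made after the values were seen and was not tested as a list. All 12 members called lower, CTT1, CCP1, SOD2 and TSA2 among them, lie outside it, as do most of the 10 called higher. Whether Yap1 acts on those genes was not examined, so the lack of lower genes may come from the choice of list.

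By location, a set of 6 mitochondrial members (SOD2, CCP1, TRX3, TRR2, PRX1 and GRX5) held 3 lower genes and 1 higher. Their log2 fold changes had a median of -0.32. The set may leave out members found in mitochondria only in part. The cytosolic thioredoxin pathway (TRX1, TRX2, TRR1, TSA1, TSA2, AHP1, MXR1 and SRX1) was higher for 4 of 8 and lower for 1, with a median of 0.31. This set may leave out other members that draw on thioredoxin. It does not hold the peroxidase genes GPX1 and HYR1, which were both lower. Both sets were drawn up with the values known and are given as counts only, beside 24.4% lower, 38.0% higher and a median of 0.17 over all genes tested.

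Because paralogs and counterparts in other compartments were read on the same arrays, their ratio within an array shows whether they moved unequally, whatever the scaling of that array. Over 12 pairs with both members tested, the log2 ratio separated the biofilm from the bottom layer arrays without overlap in 9. Taken singly, 68.0% of all genes tested also separated without overlap, and the share for pairs of unrelated genes was not computed. With 3 arrays against 3 the exact two-sided permutation test cannot go below p = 0.10, which these 9 pairs reached (0.133 after adjustment over the 12 pairs), so none could pass. The ratio of TRX1 to TRX2 was higher in the biofilm by 1.55 on the log2 scale, 2.92-fold, and that of TRR1 to TRR2 by 1.54. It was higher by 1.24 for TRX2 to TRX3, 0.45 for SOD1 to SOD2, 0.69 for GRX3 to GRX4 and 0.57 for OYE2 to OYE3. In the other direction the difference was -1.85 for GSH1 to GSH2, -1.08 for GPX1 to HYR1 and -0.49 for GRX1 to GRX2. No ratio is given for GPX2 to HYR1, since GPX2 lay below the highest control on 1 array. TSA1 against TSA2, TSA1 against PRX1 and GTT1 against GTT2 overlapped between the groups (exact permutation p = 0.20, 1.0 and 0.30). Probe sequences were not used here, so hybridisation of a paralog's RNA to these probe sets was not tested.

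**Figure D4:**
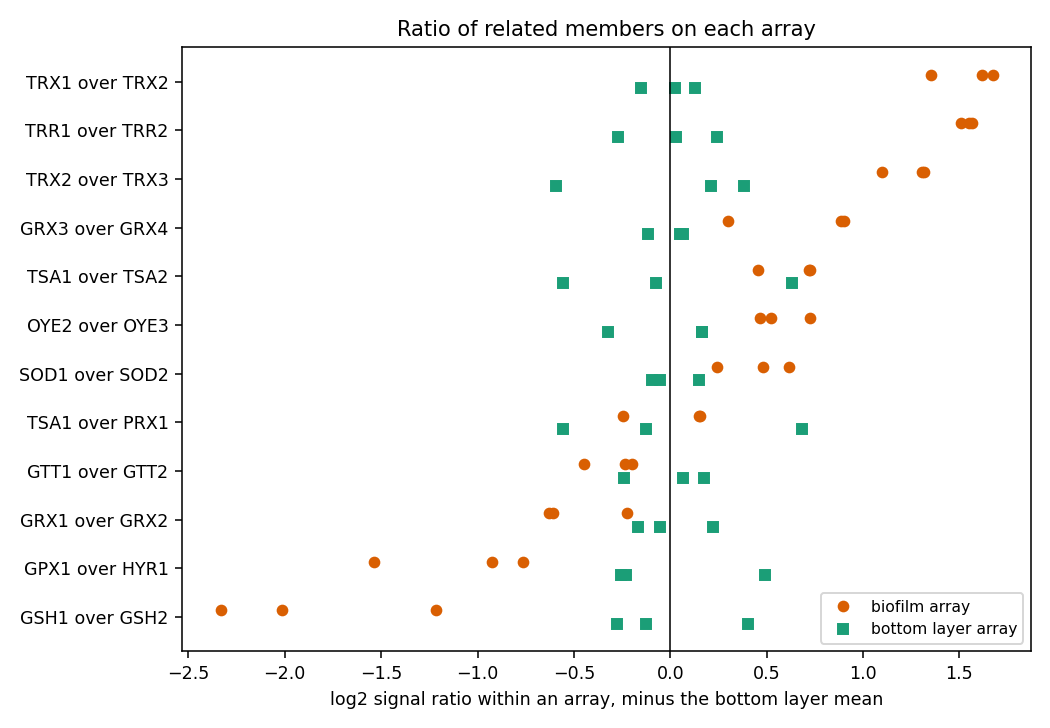
Log2 signal ratio of 12 pairs of related members on each array, shown as the distance from the bottom layer mean (horizontal axis); circles are the 3 biofilm arrays, squares the 3 bottom layer arrays. TRX1 over TRX2 and TRR1 over TRR2 lie farthest to the right in the biofilm and GSH1 over GSH2 farthest to the left, while TSA1 over PRX1 overlaps.

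Neighbouring pathways were read from 8 lists. Dim genes and genes without a probe set of their own were not tested, so most lists are only partly covered. Of the stress regulators 13 of 22 listed were tested, and of the Yap1 targets outside the members 10 of 16. The counts of each list stand beside 38.0% higher, 24.4% lower and a median log2 fold change of 0.17 over all genes tested. The list drawn up for cysteine supply also holds genes of methionine metabolism and uptake, such as MET6, SAM1, SAM2 and MUP1. Its counts therefore do not describe cysteine supply alone. It numbered 12 genes tested, of which 9 were higher, none was lower in the limma fit and 3 were not called. At an unadjusted p under 0.05, 0 were lower. Their median log2 fold change was 1.61. CYS3, which makes cysteine from cystathionine, was at 6142 ± 303 in biofilm cells and 1227 ± 224 in bottom layer cells (5.01-fold, adjusted p = 2.15e-06). MET17, which fixes sulfide into homocysteine, was 4.94-fold higher, SAH1, which recycles homocysteine, 4.08-fold and the methionine permease gene MUP1 3.90-fold. Sulfur genes were already known to be higher in these data when the list was drawn up, so its direction is not independent evidence.

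The NADPH list went both ways, with 5 higher and 4 lower of 14. ZWF1, the entry enzyme of the pentose phosphate pathway and a main source of NADPH, was at 539 ± 112 in biofilm cells and 3774 ± 508 in bottom layer cells, 6.88-fold lower (adjusted p = 1.08e-06). SOL3, a gene for the next step, rose to 1599 ± 239.7 in the biofilm against 338 ± 44.2 in the bottom layer (4.55-fold). TKL1, a transketolase, rose 3.35-fold and MAE1, the mitochondrial malic enzyme, 2.30-fold. ZWF1 and SOL3 therefore moved in opposite directions. Values of SOL4, which is also on the list, are not given here.

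Of 16 other glutathione and thiol genes 7 were higher and 1 was lower. YCF1, which pumps glutathione conjugates into the vacuole, was at 807 ± 129 in biofilm cells and 197 ± 23.2 in bottom layer cells (3.84-fold higher, adjusted p = 7.66e-06). EUG1, a protein disulfide isomerase, was 3.22-fold higher and DUG3, of glutathione breakdown, 2.27-fold. The lower gene was GRX6, a monothiol glutaredoxin of the secretory pathway, at 345 ± 56.5 in biofilm cells and 883 ± 162 in bottom layer cells (2.48-fold lower, adjusted p = 0.000128).

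Of 18 genes for catalase A, ascorbate, ubiquinone and mitochondrial electron carriers 9 were lower and 4 higher, at a median log2 value of -0.48. Beside CTA1 these included CYC7, a cytochrome c isoform (10.1-fold lower), ARA1, an arabinose dehydrogenase of erythroascorbate synthesis (3.10-fold lower) and HMX1, haem oxygenase (2.54-fold lower). For copper, manganese and iron delivery 4 of 15 were higher and 5 lower. ISU2, a scaffold for iron-sulfur clusters, was 3.14-fold higher and SMF1, a manganese transporter gene, 2.97-fold higher, while CRS5, a copper-binding metallothionein, was 3.89-fold lower.

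The last 3 lists were mixed. Of 10 Yap1 target genes outside the members 3 were higher and 2 lower: AAD4 (an aryl alcohol dehydrogenase) rose 2.24-fold, LOT6 (a quinone reductase) 1.92-fold and ATR1 (a drug exporter) 1.85-fold, and PST2 fell 1.66-fold. Hybridisation of RNA from related AAD genes to the AAD4 probe set was not tested. Of 10 genes for carbonyl and aldehyde detoxification 2 were higher and 2 lower, with the stress gene GRE1 7.01-fold lower, the aldehyde dehydrogenase gene ALD3 2.21-fold lower, the formaldehyde dehydrogenase gene SFA1 2.26-fold higher and the alcohol dehydrogenase gene ADH6 1.58-fold higher. The ADH6 call was lost with the ACT1 covariate (adjusted p = 0.0675). Among 13 stress regulators 3 were higher and 3 lower. CIN5, a Yap-family factor, had 55.5 ± 5.55 in the biofilm against 411 ± 54.2 in the bottom layer (5.94-fold lower, adjusted p = 1.47e-06), and the osmotic stress kinase gene HOG1 was 2.12-fold lower. SLN1, the histidine kinase that signals to both Skn7 and Hog1, was 2.39-fold higher and SLT2, the cell wall integrity kinase gene, 2.11-fold higher.

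**Figure D5:**
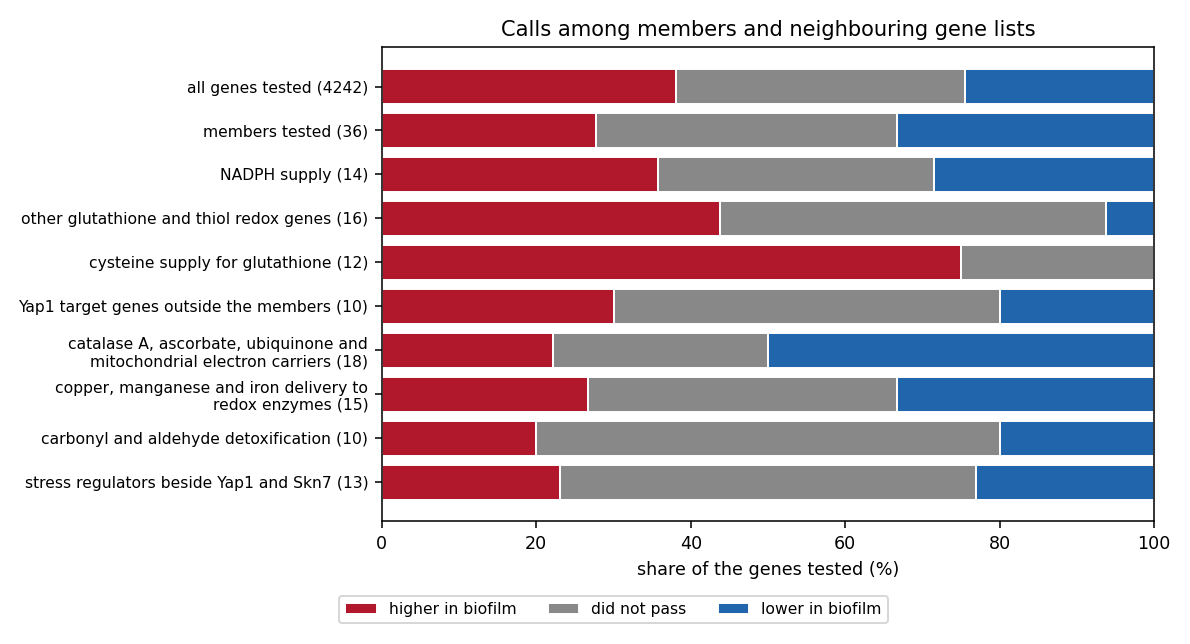
Share of genes tested (horizontal axis, %) that were higher, did not pass or were lower in the biofilm, for all genes, the members tested and 8 neighbouring lists; the number tested is in brackets. The 12 genes of the cysteine supply list, which include methionine genes, hold 9 higher and no lower genes, whereas the members (10 higher, 12 lower of 36) are divided.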

How the data were processed

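Biotin-labelled RNA of 6 samples was read on Affymetrix yeast arrays. The authors deposited a linear signal intensity for each probe set and array, made with MAS5, per the submitters' processing notes. The MAS5 settings were not given in the sources used here. Of 9335 probe sets, 6504 paired with exactly 1 gene.

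Intensities were taken as log2(signal + 16), which understates the folds of dim genes. Each gene kept its probe set with the highest mean log2 value, and the dimmest 25% of genes (1414) were left out. limma 3.58.1 (R 4.3.3; lmFit, then eBayes with trend) tested 4242 genes, two-sided, with Benjamini-Hochberg adjustment at 0.05, and was first tested on simulated data. The simulation changed only a small share of genes and gave all arrays equal noise, unlike these data, so it does not show how the fit behaves here. Background was the highest of 19 unspiked control probe sets on an array, at 16.3 to 44.8.

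Signals of all arrays are given for called members with at least 2-fold change and for tested members of pairs, others as mean and SD or range. Up to 4 genes of each neighbouring list, those with the smallest p, are named. Members and lists were chosen with earlier results of these data known. Alternatives were pseudocounts of 1 and 64, other dim filters, quantile normalization, median centring, no trend, array weights, a replicate block, an ACT1 ratio covariate, other probe sets and leaving out each array. Promoter motifs were not analysed here. Plots used matplotlib 3.10.9 (Python 3.11.15).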

Additional observations from a re-analysis of the deposited data

How the results depend on the processing

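The count of called members was 22 and lay between 18 and 24 under the alternatives, with 18 to 22 when 1 array was left out, and no called member changed sign in any fit of its brightest probe set. Under median centring the all-gene median log2 fold change was -0.03, in place of 0.17, and 49.5% of calls were higher (1310 higher, 1334 lower), in place of 60.9% (1613 higher, 1037 lower), with 8 members higher and 14 lower in place of 10 and 12. Of the 22 calls, 17 were kept with the ACT1 covariate, 17 without biofilm replicate 2, and 20 under quantile normalization and under median centring.

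Signs turned for members that had not passed and for other probe sets, and the cause was not tested. Under quantile normalization the log2 fold change was 0.12 for SOD1, 0.34 for TSA1 and -0.0767 for YAP1. Under median centring it was -0.0507 for SRX1, -0.12 for YHB1 and -0.12 for YAP1. With array weights it was 0.0753 for SOD1 and 0.0419 for CCS1, and with the ACT1 covariate 0.22 for SOD1, 0.37 for TSA1, -0.23 for DOT5 and -0.16 for YAP1. A second probe set gave -0.33 for GRX5, and a probe set of YHB1 mostly below the controls -1.06. Leaving out 1 array gave -0.10 to 0.11 for SOD1, -0.0502 to 0.0753 for CCS1, -0.24 to 0.16 for TSA1, -0.20 to 0.0227 for PRX1, -0.37 to 0.008 for TRR2, -0.0327 to 0.19 for YHB1 and -0.0761 to 0.26 for YAP1. The stress regulator list had 11 calls with no dim filter and 3 without the dimmest 50%, in place of 6, and the outside Yap1 targets 3 in place of 5 under that stricter filter.

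The replicate block left 22 members called and 2636 genes in all, in place of 2650. Deviations of same-numbered arrays correlated at -0.01, -0.09 and 0.16, so the numbers were not taken to pair the samples. Signal over background limits GPX2, which lay below the highest unspiked control on 1 array.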
